A study of Mus musculus with 6 samples.

Results

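The cell cycle genes described here are 49 genes of the division cycle, read in RNA-seq libraries of natural killer (NK) cells, innate lymphocytes that kill infected or transformed cells. They were chosen by symbol, and each matched 1 of the 37991 Ensembl gene rows of the deposited counts. By role they fell into 7 G1 cyclins and cyclin-dependent kinases (CDKs), 3 CDK inhibitors, 4 genes of the E2F and Rb switch, 14 S phase genes and 21 mitosis genes. The rule that lists them uses no measured value, but the members and role groups were chosen with earlier results of these data known.

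The cells were splenic NK cells carrying both CD27 and CD11b, a combination found at an intermediate stage of maturation, from mice of the C57BL6 background. There were 3 libraries of the genotype wildtype and 3 labelled Rroid KO, here called deficient. Rroid is a long noncoding RNA gene near Id2, which encodes an inhibitor of E protein transcription factors needed by NK cells. How the Rroid allele was made, the age of the mice, and whether each library came from its own mouse are not given in the labels, so each p-value reflects only library-to-library spread, which may be technical. In bulk RNA, fewer dividing cells and less cycle RNA per cell cannot be told apart.

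Entry into the cycle runs through the D-type cyclins with CDK4 and CDK6, which phosphorylate the retinoblastoma protein Rb and free E2F factors to switch on the genes of DNA replication. Cyclin E with CDK2 drives the start of S phase, and p21, p27 and p18 restrain these kinases. Genes of G2 and mitosis switch on later, through promoter elements bound by the DREAM and MuvB complexes. Most splenic NK cells of an unchallenged mouse are not dividing, and bone marrow and immature NK cells divide more than mature ones.

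Depth was 5823626 to 9216430 reads in genes per library. Values are CPM, reads of a gene scaled to a common total of reads in genes, on library sizes scaled by the trimmed mean of M values, and the floor of 3 reads, up to which a gene listed at 0 may lie, equalled 0.322 to 0.489 CPM per library (counting error only). Wildtype 1 had 5.63% of the 11724 tested genes at 0, deficient 1 had 5.57% and deficient 2 had 2.43%, against 0.23% to 0.392% in the other libraries. As a check of the label, Id2 read 468, 338 and 341 CPM in wildtype and 38.9, 66.7 and 81.2 CPM in deficient libraries. All 13 NK cell markers were detected, with a summed level of 13895 to 17541 CPM in wildtype and 12181 to 12779 CPM in deficient libraries. The sum was thus lower in every deficient library. Of the 13, 10 had a negative and 3 a positive fitted change, and 0 passed the edgeR test used below. Klrb1c, Klrk1, Klrd1 and Gzma, 4 of the 13 (30.8%), were lower in every deficient library. Libraries were separated in either direction in 12.4% of all genes tested.

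The promoter words of the cycle differed in share between its S phase and mitosis genes, and 4 promoters are shown. RefSeq promoter windows (build GRCm38.p6) were found for 39 of the 49 genes, 45 windows in all, and the 250 bases before each start were searched on both strands. The words were the E2F site (TTTCCCGC, TTTCGCGC, TTTGCCGC or TTTGGCGC), the cell cycle homology region or CHR of mitosis genes (TTTGAA or TTCGAA) and the CCAAT box (CCAAT) bound by the factor NF-Y. Mcm6 was chosen for the most E2F words among S phase windows and Top2a for the most CHR words among mitosis windows. They are thus extremes of their groups. Mki67 was chosen as the most abundant mitosis gene, and Cdk1 as a mitosis window with E2F, CHR and CCAAT words. Each sequence below is written 5′ to 3′ on the minus strand, with every such word on either strand in capitals. Mcm6, a subunit of the replicative helicase, lies at chr1:128359706-128359955. Mki67, the gene of the proliferation antigen Ki-67, lies at chr7:135716380-135716629. Top2a, the topoisomerase that untangles chromosomes, lies at chr11:99024190-99024439. Cdk1, the mitotic kinase, lies at chr10:69352913-69353162.
Mcm6: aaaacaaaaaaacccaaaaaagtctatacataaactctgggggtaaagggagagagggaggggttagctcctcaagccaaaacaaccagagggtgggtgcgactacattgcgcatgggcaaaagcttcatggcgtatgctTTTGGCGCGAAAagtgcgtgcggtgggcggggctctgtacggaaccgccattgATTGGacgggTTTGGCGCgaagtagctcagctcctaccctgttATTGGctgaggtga
Mki67: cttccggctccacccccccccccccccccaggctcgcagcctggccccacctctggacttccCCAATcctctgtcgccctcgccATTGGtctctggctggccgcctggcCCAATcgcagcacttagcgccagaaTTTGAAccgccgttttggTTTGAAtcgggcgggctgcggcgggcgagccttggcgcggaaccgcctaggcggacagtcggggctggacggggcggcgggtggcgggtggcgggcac
Top2a: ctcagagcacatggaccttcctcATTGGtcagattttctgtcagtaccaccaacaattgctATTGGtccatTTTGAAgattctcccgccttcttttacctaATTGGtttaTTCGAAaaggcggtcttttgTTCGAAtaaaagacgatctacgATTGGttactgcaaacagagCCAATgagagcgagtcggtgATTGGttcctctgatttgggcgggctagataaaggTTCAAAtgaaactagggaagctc
Cdk1: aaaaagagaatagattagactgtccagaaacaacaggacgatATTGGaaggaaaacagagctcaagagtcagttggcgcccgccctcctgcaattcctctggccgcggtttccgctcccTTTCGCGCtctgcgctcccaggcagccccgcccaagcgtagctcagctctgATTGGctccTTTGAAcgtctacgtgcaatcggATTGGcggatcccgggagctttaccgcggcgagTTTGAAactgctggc

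Distances are from the RefSeq start, and for Mcm6 and Mki67 the bases just after that start were not found in the gene's transcripts in the GRCm38 annotation used for gene lengths. The Mcm6 window held 3 E2F matches, 2 of which overlap at 110 and 106 bases before the start on opposite strands, and 0 CHR words. Mki67 held 2 CHR words at 116 and 98 bases before the start, and Top2a held 4. Cdk1 held 1 E2F word and 2 CHR words, the nearer 15 bases before the start. Over all listed windows, an E2F word stood in 5 of 13 S phase windows (38.5%) and 1 of 16 mitosis windows (6.25%), against 1.86% of all 32851 windows. A CHR word stood in 8 of 16 mitosis windows (50%) and 2 of 13 S phase windows (15.4%), against 17.1% of all windows. CCAAT stood in 15 of 16 mitosis windows (93.8%) and 9 of 13 S phase windows (69.2%), against 33.8%. These shares describe letters in the reference and not binding in these cells. The E-boxes CAGCTG and CAGGTG, words that E proteins bind, stood in 6 of 45 windows of the set (13.3%), against 27.7% of all windows.

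Across the set, 45 of 49 genes had enough reads to be tested between genotypes, and Cdk2, Ccnb1, Aurka and Cdc20 did not. In the quasi-likelihood test of edgeR, with p adjusted by Benjamini and Hochberg over all genes tested, 0 of the 45 passed a threshold of 0.05, and the smallest adjusted p was 0.895. Over all tested genes 0.0171% passed, 0.00853% higher and 0.00853% lower in deficient cells. At an unadjusted p under 0.05 there was 1 of 45, E2f1, against 5.29% of all genes. DESeq2, which gave E2f1 no adjusted p, and limma-voom also called 0 of the set.

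The fitted change was positive in 20 of the 45 and negative in 25, with a median of −0.15 on the log2 scale against 0.024 over all genes tested. In 4 of 45 genes (8.89%) the 3 libraries of one genotype lay wholly to one side of the other 3, against 12.4% of all genes tested. E2f1 was the 1 gene higher in every deficient library, where 6.03% of all genes were. Ccnd3, Cdk6 and Mcm7 were the 3 that were lower in every deficient library, where 6.33% of all genes were. The interval of the change lay within 2-fold either way in Ccnd2, Cdkn1b, Pcna and Mcm6 alone among the 45. For the others, a change of more than 2-fold in at least 1 direction lay within the interval.

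**Figure D1:**
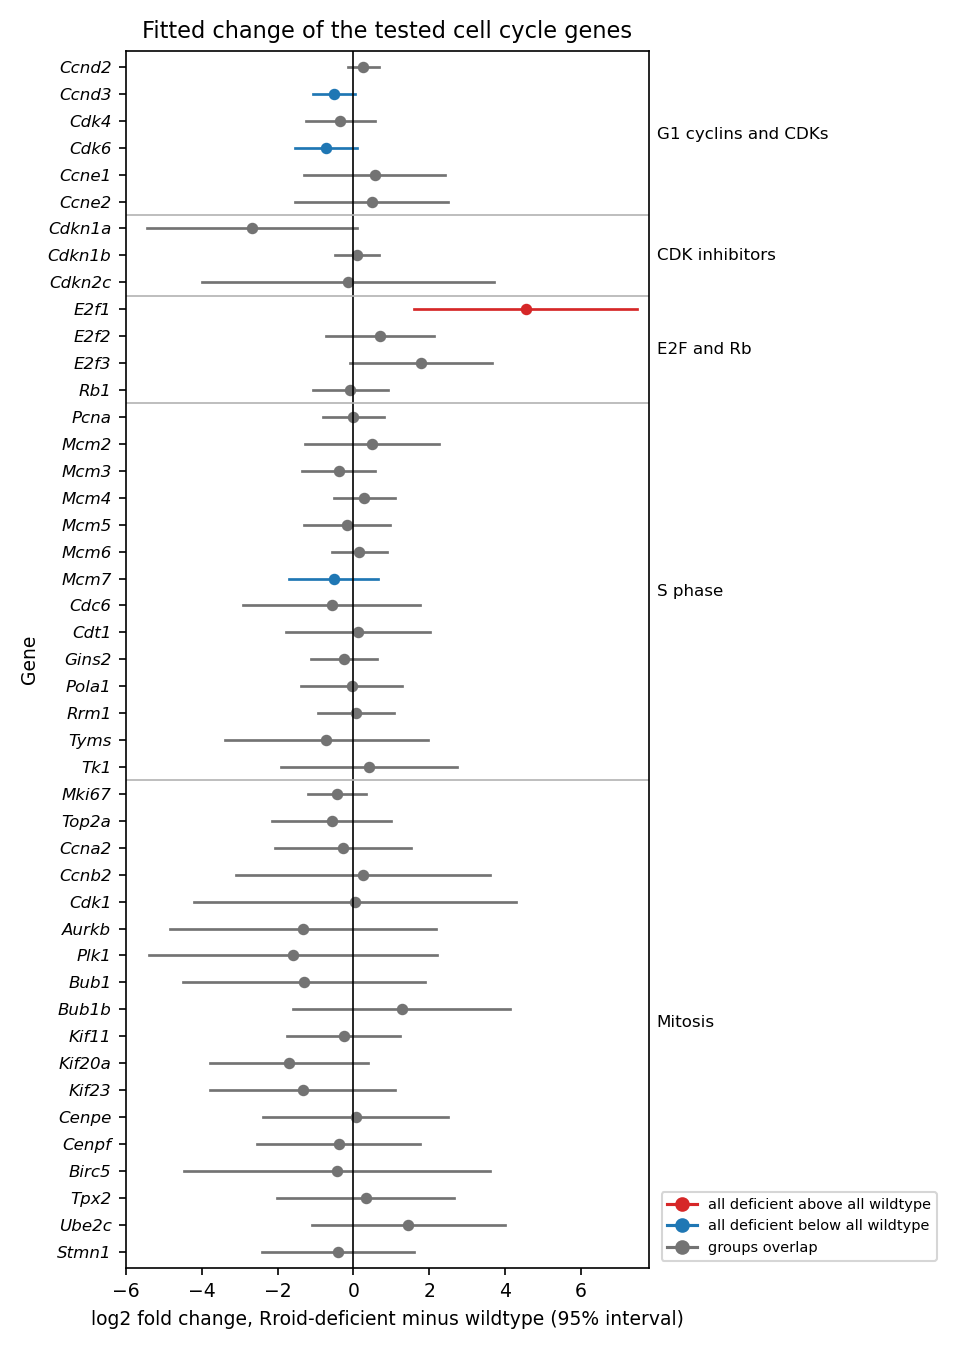
Fitted log2 fold change (deficient minus wildtype, x axis) with its 95% interval for each of the 45 tested cell cycle genes (y axis), grouped by role. E2f1 is the 1 gene whose interval leaves 0, and Cdk1, Birc5 and Cdkn2c have the widest intervals.

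Per kilobase of exon, the abundant members were those of G1 and of replication. This scale compares genes only roughly, because the RNA was amplified and the lengths come from another genome build than the counts. Mean level over the 6 libraries was 57.3 CPM per kb for Ccnd2, 26.3 for Cdkn1b, 25.9 for Gins2, 25.4 for Pcna, 25.3 for Mcm4 and 16.7 for both Ccnd3 and Mcm6. The Gins2 level is uncertain, since 67.3% of its exonic length is shared with Gse1. Cdk4 followed at 14.9 CPM per kb and Mki67 at 13.6. At the other end stood Ccnb1 at 0.173, Cdk2 at 0.241, Aurka at 0.261 and Cdc20 at 0.293 CPM per kb. The median level was 48.4 CPM in the G1 cyclins and CDKs, 26.4 CPM in the S phase genes and 5.40 CPM in the mitosis genes. Of the 49 genes, 9 had a count of 0 in at least 1 library, 8 of them mitosis genes and the other Cdkn2c.

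The G1 cyclins and CDKs summed to 895, 774 and 738 CPM in wildtype and 766, 919 and 767 CPM in deficient libraries, overlapping ranges. Of the 6 tested, 3 had a positive and 3 a negative fitted change, with a median of −0.044 on the log2 scale. Ccnd2 (ENSMUSG00000000184), cyclin D2, read 563, 456 and 452 CPM in wildtype and 563, 691 and 508 CPM in deficient libraries. Its log2 fold change was 0.26 ± 0.18 (SE), with a 95% interval of −0.15 to 0.67 and an adjusted p of 0.925 in edgeR. Deficient 1 matched wildtype 1, and the other deficient libraries lay between or above, so the groups overlapped.

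Ccnd3 (ENSMUSG00000034165), cyclin D3, read 179, 169 and 169 CPM in wildtype and 105, 102 and 155 CPM in deficient libraries. Each deficient library was lower than each wildtype one, and deficient 3 came nearest to them. For Ccnd3 the fitted log2 fold change was −0.51 ± 0.25 (SE), with an interval of −1.06 to 0.03 and an edgeR adjusted p of 0.916. The ratio of Ccnd2 to Ccnd3 per kilobase was 2.94, 2.51 and 2.50 in wildtype and 5.02, 6.29 and 3.06 in deficient libraries, so these 2 D-type cyclins stood further apart in each deficient library. That ratio was examined after its genes' values were seen and carries no test.

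Cdk6, a kinase partner of the D cyclins, read 87.5, 60.5 and 56.2 CPM in wildtype and 50.6, 31.8 and 40.4 CPM in deficient libraries. Again every deficient library was below every wildtype library, with a log2 fold change of −0.73 ± 0.37 (SE) and an edgeR adjusted p of 0.925. Cdk4, the other such partner, read 47.0, 73.6 and 42.2 CPM in wildtype and 28.4, 50.4 and 49.1 CPM in deficient libraries. Here the groups overlapped, and the log2 fold change was −0.35 ± 0.41 (SE). Of the exonic length of Cdk4, 19.7% is shared with Tspan31 in the GRCm38 annotation, so its count is uncertain.

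Ccne1, cyclin E1, read 14.4, 6.23 and 5.66 CPM in wildtype and 7.06, 25.1 and 6.50 CPM in deficient libraries. Ccne2, cyclin E2, read 2.397, 7.30 and 13.2 CPM in wildtype and 10.5, 17.1 and 4.29 CPM in deficient libraries. Of the exonic length of Ccne2, 17.4% is shared with Ints8 in the GRCm38 annotation, so its count is uncertain. Deficient 2 was the highest library for both cyclins, and the groups overlapped in both. Cdk2, their kinase, was at 1.35, 1.83 and 0.315 CPM in wildtype and 1.15, 0.489 and 3.87 CPM in deficient libraries, too low to test.

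The genotypes also differed in some marker genes of other cells. The 12 T cell markers summed to 171 to 266 CPM in wildtype and 346 to 451 CPM in deficient libraries, higher in every deficient library. Of those 12, 5 could be tested and Cd3d, Cd3g and Trbc2 made up the 3 with separated libraries, while Cd6 and Cd8a were at 0 throughout and Cd3e held 3 reads in all, in wildtype 2. The 9 B cell markers summed to 229 to 341 CPM in wildtype and 330 to 614 CPM in deficient libraries, nearly all of it Ighm, with Pax5 and Blk at 0. The 10 myeloid markers stayed at or under 10.4 CPM and the 10 erythroid markers between 20.6 and 39.95 CPM, with Klf1 and Rhag at 0. The part of these differences in the cell cycle values was not tested.

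Among the CDK inhibitors, Cdkn1b (p27, ENSMUSG00000003031) was abundant and had similar levels in both genotypes. It read 114, 109 and 125 CPM in wildtype and 160, 112 and 99.0 CPM in deficient libraries. For Cdkn1b the log2 change was 0.092 ± 0.27 (SE), with a 95% interval of −0.50 to 0.68. Deficient 1 was the highest and deficient 3 the lowest of the 6.

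Cdkn1a (p21, ENSMUSG00000023067), a p53 target, read 25.5, 7.84 and 3.78 CPM in wildtype and 0.144, 4.08 and 1.52 CPM in deficient libraries. Wildtype 1 was far above the rest, and deficient 2 lay above wildtype 3, so the groups overlapped. For Cdkn1a the log2 change was −2.69 ± 1.24 (SE), with an interval of −5.45 to 0.08 and an edgeR adjusted p of 0.914. It was −1.06 without wildtype 1 and deficient 1, the libraries with most genes at 0. Cdkn2c (p18) was at 0 in wildtype 1 and deficient 2 and between 2.59 and 11.9 CPM in the other libraries, with an interval of −4.01 to 3.71 that leaves its direction unresolved.

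The E2F genes had their highest value in one library, deficient 1, as did Rb1. E2f1 (ENSMUSG00000027490), an activating E2F factor, had 2, 5 and 14 reads in wildtype and 428, 35 and 27 reads in deficient libraries. On the CPM scale these were 0.300, 0.537 and 2.20 in wildtype and 61.7, 5.71 and 3.73 in deficient libraries. Every deficient library lay above every wildtype library, but deficient 1 stood far above the other deficient libraries.

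The log2 fold change of E2f1 was 4.54 ± 1.33 (SE), with a 95% interval of 1.60 to 7.49. Its unadjusted p was 0.00635 and its adjusted p 0.895 in edgeR, so it did not pass over all genes. With no filter on low counts the adjusted p was 0.0082, which passes. Without deficient 1 the log2 fold change was 2.21.

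E2f3, another activating E2F, read 5.09, 6.23 and 8.49 CPM in wildtype and 48.0, 14.4 and 5.67 CPM in deficient libraries. Deficient 3 lay inside the wildtype range. For E2f3 the log2 change was 1.78 ± 0.84 (SE) with an edgeR adjusted p of 0.915, and 0.59 without deficient 1. E2f2 read 14.5, 21.5 and 19.0 CPM in wildtype and 57.4, 18.6 and 13.0 CPM in deficient libraries, with deficient 1 alone above the wildtype range. Rb1, which encodes the Rb protein that holds E2F in check, read 34.3, 89.4 and 83.8 CPM in wildtype and 96.9, 45.7 and 53.1 CPM in deficient libraries. Wildtype 1 was the lowest library for Rb1 and the groups overlapped. Of its exonic length 14.9% is shared with Lpar6 and Rcbtb2 in the GRCm38 annotation, so its count is uncertain.

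Summed, these 4 genes gave 95.2 ± 35.5 CPM in wildtype and 141 ± 106 CPM in deficient libraries (SD, n = 3 each). The deficient sum was 264, 84.3 and 75.5 CPM, so deficient 1 lay above and the other deficient libraries within the wildtype range of 54.2 to 118 CPM. The median log2 fold change of the 4 was 1.23, and 0.18 without deficient 1.

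**Figure D2:**
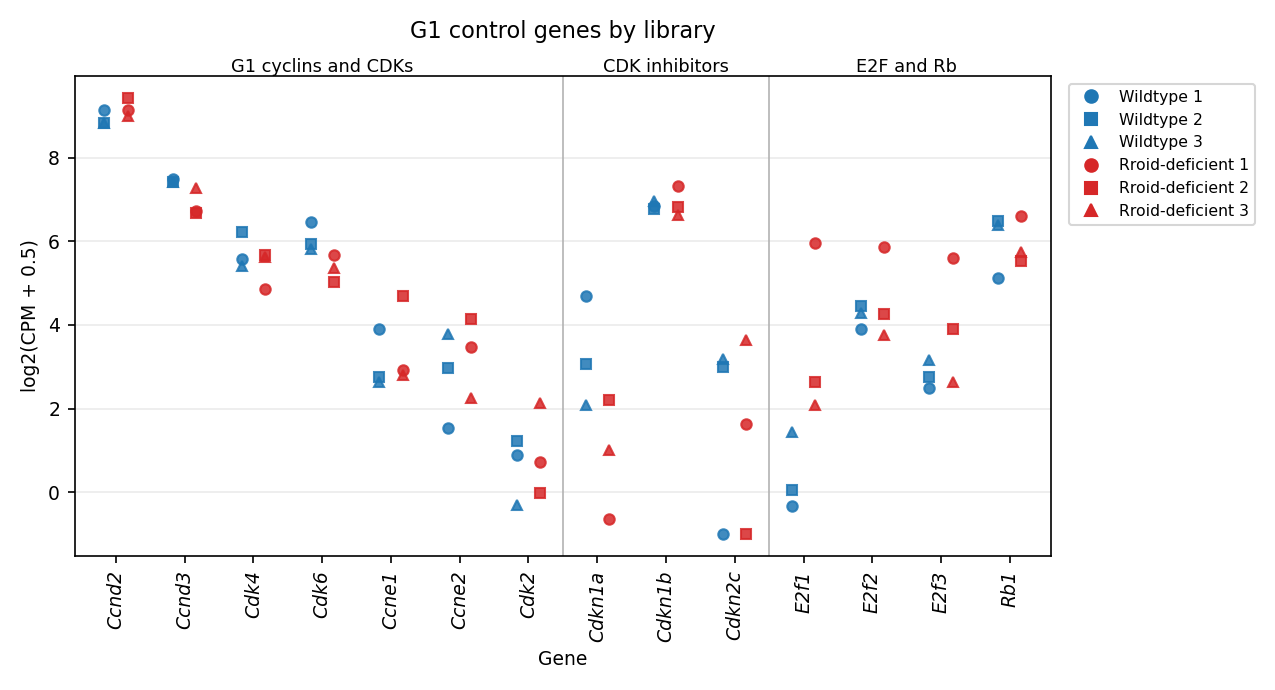
Level of each G1 cyclin, CDK, CDK inhibitor, E2F gene and Rb1 (x axis) as log2(CPM + 0.5) (y axis), 1 point per library, wildtype in blue and deficient in red. The circle of deficient 1 stands highest for all 4 genes of the E2F and Rb group, and the Ccnd3 and Cdk6 points of the genotypes do not overlap.

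The summed level of the S phase genes differed by less than the spread between libraries, 564 ± 61.0 CPM in wildtype and 563 ± 43.9 CPM in deficient libraries (SD, n = 3 each). All 14 were tested, 0 passed, and the fitted change was positive in 7 and negative in 7, with a median of −0.022 on the log2 scale. Pcna (ENSMUSG00000027342), the sliding clamp of DNA polymerases, read 44.9, 77.3 and 60.2 CPM in wildtype and 48.3, 78.1 and 56.3 CPM in deficient libraries. The groups covered nearly the same range, and the 95% interval of the log2 fold change was −0.80 to 0.80.

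The 6 MCM genes encode the ring helicase that opens the double helix at origins. Mcm6, whose promoter is shown above with its E2F words, read 54.8, 83.4 and 82.0 CPM in wildtype and 64.0, 105 and 77.3 CPM in deficient libraries. Mcm4 read 69.4, 117 and 59.1 CPM in wildtype and 137, 71.1 and 91.7 CPM in deficient libraries. Both overlapped, with log2 fold changes of 0.16 ± 0.33 and 0.28 ± 0.36 (SE).

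Mcm3 read 45.1, 54.7 and 31.6 CPM in wildtype and 44.0, 29.5 and 26.7 CPM in deficient libraries, with deficient 1 inside the wildtype range. Mcm7 read 23.7, 21.7 and 26.4 CPM in wildtype and 16, 20.9 and 13.1 CPM in deficient libraries. It was the 1 S phase gene with separated libraries, by a narrow gap between wildtype 2 and deficient 2, and its log2 fold change was −0.52 ± 0.53 (SE) with an edgeR adjusted p of 0.936. In the GRCm38 annotation 12.6% of its exonic length is shared with other genes. Mcm5 averaged 23.7 and 21.0 CPM in wildtype and deficient libraries, and Mcm2 24.0 and 33.8 CPM, where wildtype 1 alone was low at 2.25 CPM.

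Gins2, a subunit of the GINS complex that joins the helicase, read 170, 94.3 and 82.3 CPM in wildtype and 113, 125 and 53.1 CPM in deficient libraries. Of its exonic length 67.3% is shared with Gse1 in the GRCm38 annotation, so its level is uncertain. The licensing factors Cdc6 and Cdt1 averaged 4.21 and 20.5 CPM in wildtype and 2.84 and 22.2 CPM in deficient libraries. Cdt1 was even across wildtype, at 18.9 to 22.8 CPM, and uneven across deficient libraries, at 4.61, 54.7 and 7.47 CPM.

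Of the nucleotide and polymerase genes, Rrm1, the large subunit of ribonucleotide reductase, averaged 43.1 CPM in wildtype and 45.2 CPM in deficient libraries. Pola1, the catalytic subunit of polymerase alpha, averaged 24.3 and 23.5 CPM. Tyms and Tk1, which supply thymidylate, averaged 12.3 and 12.9 CPM in wildtype and 7.51 and 17.2 CPM in deficient libraries. Deficient 1 held 2 reads of Tyms and 3 of Tk1, at or under the floor, while the other deficient libraries had 5.12 to 30.3 CPM of these genes. Deficient 1 was thus low for thymidylate genes while it was high for Mcm4 and Rrm1.

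The mitosis genes summed to 345 ± 51.9 CPM in wildtype and 255 ± 101 CPM in deficient libraries (SD, n = 3 each), a ratio of 0.740. By library the sum was 292, 396 and 347 CPM in wildtype and 140, 323 and 304 CPM in deficient libraries. Deficient 1 lay below every other library, and deficient 2 and 3 lay inside the wildtype range. Of the 21 genes 18 were tested and 0 passed, with a positive fitted change in 6, a negative one in 12 and a median of −0.40 on the log2 scale. Without deficient 1 the median was −0.066.

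Zero counts were spread unevenly over the libraries. Among its 21 genes, 5 were at 0 in wildtype 1, 6 in deficient 1, 3 in deficient 2 and 0 in each of the other libraries. With ties at 0 given to the first library in order, wildtype 1 and deficient 1 were each counted lowest for 9 of the 21. Cdk1, Birc5 and Cdc20 were at 0 in both of these libraries and were counted for wildtype 1, so deficient 1 was lowest or tied more often. The median standard error of the log2 fold change was 1.10, against 0.39 for the G1 cyclins and CDKs, 0.52 for the S phase genes, 0.74 for the E2F and Rb genes and 1.24 for the CDK inhibitors.

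Mki67 (ENSMUSG00000031004) accounted for 40.8% to 48.8% of the mitosis sum in each library. It read 119, 193 and 158 CPM in wildtype and 63.0, 151 and 134 CPM in deficient libraries. Deficient 1 was the lowest and the other deficient libraries lay within the wildtype range, with a log2 fold change of −0.44 ± 0.34 (SE), an interval of −1.20 to 0.33 and an edgeR adjusted p of 0.925. Without deficient 1 it was −0.14. Top2a read 29.4, 58.1 and 70.6 CPM in wildtype and 5.77, 36.1 and 64.2 CPM in deficient libraries, with the same low library and a log2 fold change of −0.58 ± 0.71 (SE), or −0.076 without deficient 1.

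The mitotic kinesins Kif20a and Kif23, which act at the midzone of the spindle, had the smallest p in the group with Mki67 and Ube2c. Kif20a read 32.7, 32.8 and 14.5 CPM in wildtype and 5.91, 0.816 and 17.8 CPM in deficient libraries. Deficient 3 lay above wildtype 3, so the groups overlapped, and the log2 fold change was −1.70 ± 0.93 (SE) with an edgeR adjusted p of 0.925. Its exons share 29.3% of their length with Cdc23 in the GRCm38 annotation. Kif23 read 17.5, 7.09 and 10.7 CPM in wildtype and 0.288, 3.92 and 9.68 CPM in deficient libraries, with a log2 fold change of −1.34 ± 1.10 (SE). Kif11, the kinesin that pushes spindle poles apart, averaged 19.2 CPM in wildtype and 16.02 CPM in deficient libraries.

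Ube2c, an enzyme of the anaphase-promoting complex pathway, went the other way in deficient 1. It read 0.749, 7.30 and 3.93 CPM in wildtype and 25.1, 2.61 and 5.12 CPM in deficient libraries. The high value stood in deficient 1, where most mitosis genes of the set were low, and the log2 fold change was 1.44 ± 1.15 (SE). Of its exonic length 22.8% is shared with Tnnc2 in the GRCm38 annotation, so its count is uncertain. Stmn1, which destabilises microtubules, read 9.14, 10.1 and 9.91 CPM in wildtype and 1.73, 14.0 and 6.08 CPM in deficient libraries. The wildtype libraries of Stmn1 agreed closely while the deficient ones lay on both sides of them.

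The core mitotic cyclins and kinases were at low levels. Ccna2, cyclin A2, averaged 10.8 CPM in wildtype and 8.95 CPM in deficient libraries, and Ccnb2, cyclin B2, averaged 4.90 and 5.90 CPM. In the GRCm38 annotation 12.5% of the exonic length of Ccna2 is shared with Exosc9. Cdk1, whose promoter is shown above, averaged 2.24 and 2.30 CPM and was at 0 in wildtype 1 and deficient 1. Ccnb1, Aurka and Cdc20 were under 1.1 CPM on average in both groups. Aurkb and Plk1, mitotic kinases, averaged 3.66 and 2.54 CPM in wildtype and 1.44 and 0.830 CPM in deficient libraries.

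The checkpoint genes Bub1 and Bub1b differed in sign. Bub1 averaged 4.55 CPM in wildtype and 1.85 CPM in deficient libraries, and Bub1b 2.16 and 5.27 CPM. Of the kinetochore genes, Cenpe averaged 14.8 and 15.5 CPM and Cenpf 9.86 and 7.51 CPM in wildtype and deficient libraries. Birc5 (survivin) averaged 1.38 and 1.02 CPM, and Tpx2, an activator of Aurora A, 4.31 and 5.41 CPM. All 6 overlapped between genotypes, and 0 of them passed.

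**Figure D3:**
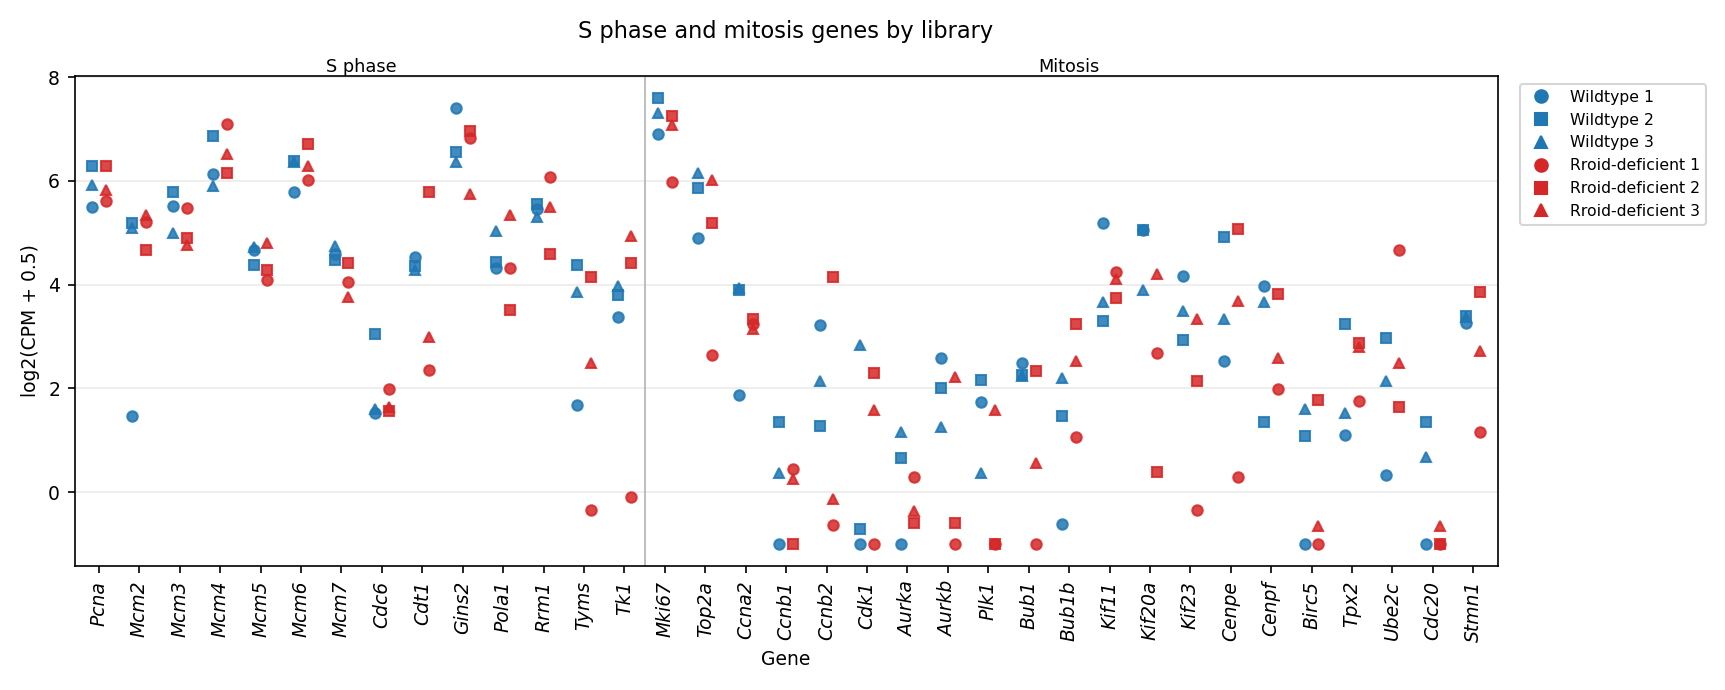
Level of each S phase and mitosis gene (x axis) as log2(CPM + 0.5) (y axis), 1 point per library, wildtype in blue and deficient in red; a count of 0 plots at −1. The S phase points mostly lie above 4 with mixed colours, while many mitosis genes lie under 4 and the circle of deficient 1 is often at the foot of the column.

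Setting the S phase and mitosis sums of the set against each other separated 1 library rather than the genotypes. The ratio of S phase to mitosis sum was 1.83, 1.60 and 1.51 in wildtype and 4.09, 1.87 and 1.70 in deficient libraries. Deficient 1 was thus high for the ratio, and the deficient libraries 2 and 3 lay close to wildtype 1. The larger lists read below did not repeat this. Deficient 1 had the lowest sum of the other S phase genes, 1370 CPM, and the highest sum of the other mitosis genes, 1583 CPM.

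**Figure D4:**
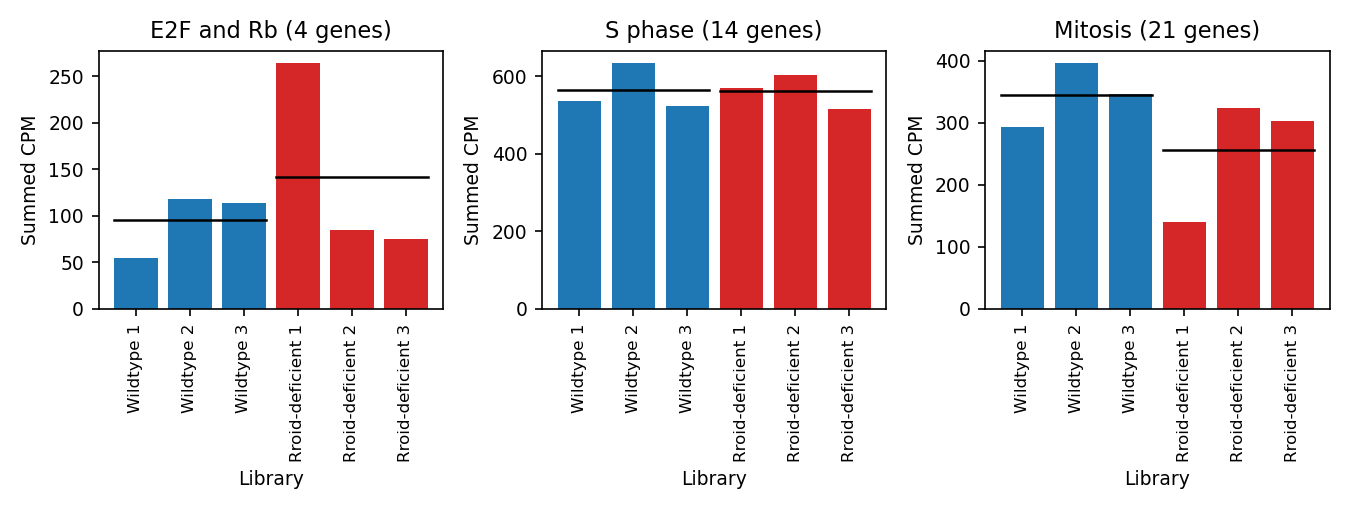
Summed CPM (y axis, from 0) of the E2F and Rb, S phase and mitosis genes in each library (x axis), with a black line at each genotype's mean. The S phase bars are level, while deficient 1 has the highest E2F and Rb bar at 264 CPM and the lowest mitosis bar at 140 CPM.

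A further 164 genes of the cycle, listed by role and not members of the set, were read in the same fit. Of these 143 were tested and 0 passed, with a smallest adjusted p of 0.757. The fitted change was positive in 57 and negative in 86, and the median was −0.25 on the log2 scale against 0.024 over all genes. At an unadjusted p under 0.05 there were 7 of 143, against 5.29% of all genes, and libraries were separated in 16 (11.2%, against 12.4% of all genes tested), 3 higher and 13 lower.

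Of the other G1 control genes 30 of 35 were tested and 0 had an unadjusted p under 0.05. Rbl2 (p130), an Rb relative that silences cycle genes in resting cells, was abundant, at 444, 402 and 447 CPM in wildtype and 379, 325 and 387 CPM in deficient libraries. Every deficient library of Rbl2 was lower, with a log2 fold change of −0.24 ± 0.17 (SE). Cdc25a, a phosphatase that activates CDKs, averaged 9.57 CPM in wildtype and 3.61 CPM in deficient libraries, also separated. Cks1b, a CDK subunit, and E2f6, a repressive E2F, had the smallest p of that list and overlapping groups, averaging 6.004 and 10.03 CPM in wildtype and 0.700 and 3.19 CPM in deficient libraries.

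Of the other S phase genes 52 of 55 were tested, with 23 positive and 29 negative changes. Timeless, a replication fork protein, read 60.5, 30.7 and 20.3 CPM in wildtype and 11.2, 1.31 and 8.30 CPM in deficient libraries. All deficient libraries of Timeless were lower, with a log2 fold change of −2.41 ± 0.80 (SE) and an edgeR adjusted p of 0.895. Chaf1b, a histone chaperone subunit, averaged 18.3 and 3.99 CPM with overlapping groups. Pola2, the second subunit of polymerase alpha, averaged 20.2 and 10.8 CPM and Rpa3, of the single-strand binding complex, 10.7 and 19.7 CPM, separated in opposite directions.

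Of the other mitosis genes 61 of 74 were tested, with 21 positive and 40 negative changes. Of the 74, 19 were at 0 in wildtype 1, 21 in deficient 1 and 12 in deficient 2, against 3 or 4 in the other libraries. The median change of the 61 was −0.40 on the log2 scale, the same size as in the member mitosis genes. It was not computed without deficient 1. The summed level did not follow, at 1462 ± 65.3 CPM in wildtype and 1434 ± 131 CPM in deficient libraries (SD, n = 3 each). That is a ratio of 0.981, against 0.740 for the members. Tacc3, a spindle protein, read 23.1, 12.3 and 7.55 CPM in wildtype and 1.297, 1.31 and 1.52 CPM in deficient libraries. The 3 deficient libraries of Tacc3 were alike and all lower, with a log2 fold change of −3.36 ± 0.91 (SE) and an edgeR adjusted p of 0.757. DESeq2 gave Tacc3 an adjusted p of 0.045, which passes. Ckap5, the microtubule polymerase that works with Tacc3, read 149, 109 and 132 CPM in wildtype and 58.5, 78.8 and 80.6 CPM in deficient libraries, a log2 fold change of −0.84 ± 0.27 (SE) with an edgeR adjusted p of 0.895.

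Kif15, a spindle kinesin, and Arhgap11a were also lower in every deficient library, with means of 20.4 and 36.0 CPM in wildtype and 2.36 and 8.96 CPM in deficient libraries. Kif15 read 34.8, 9.88 and 16.5 CPM in wildtype and 2.31, 0.489 and 4.29 CPM in deficient libraries. Arhgap11a read 65.6, 19.4 and 23.0 CPM in wildtype and 5.19, 9.95 and 11.8 CPM in deficient libraries. Wildtype 1 was the highest library for both. Genes of this list were named for a small p or separated libraries, so that separation is no separate evidence. In the opposite direction stood Smc2 and Smc4, the condensin subunits, named after their values were seen, at 46.3 and 234 CPM in wildtype and 81.3 and 295 CPM in deficient libraries. These 2 were the other mitosis genes, of 61 tested, that were higher in every deficient library, where 6.03% of all genes were. In the same list 7 were lower in every deficient library, where 6.33% of all genes were. Together 14.8% of the 61 were separated, against 12.4% of all genes tested. At an unadjusted edgeR p under 0.05 there were 5 of 61, against 5.29% of all genes.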

How the data were processed

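Per the labels' protocols, TRIzol-extracted RNA of splenic NK cells was amplified with an Ovation kit before single-end sequencing. Per the submitters' processing notes the tools included TopHat2 2.1.0, Trimmomatic 0.33, DESeq2 and HTSeq 0.6.1, and the builds were mm9 and NCBIM37. Their settings and the strand option of counting were not given in the sources used, so overlapping genes are uncertain. The authors deposited raw counts of reads per Ensembl gene for each of 6 libraries. The 5 closing rows that name no gene held 80.0% to 84.4% of listed reads and were left out.

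Symbols, exonic lengths and exon overlaps came from a GRCm38 annotation. Genotypes were compared in R 4.3.3 with edgeR 4.0.16, using TMM scaling, the filterByExpr filter, the quasi-likelihood test with no block, and a Benjamini-Hochberg threshold of 0.05. Standard errors were derived from each F statistic and log2 change; the common biological coefficient of variation was 0.661. The test was checked on simulated counts. Alternatives were RLE factors, no filter, a stricter filter, DESeq2 1.42.0, limma-voom (limma 3.58.1), the replicate block, each library left out, and a threshold of 0.1. Every pair of libraries differed beyond sampling noise, with a smallest chi-square of 19.2 per degree of freedom. Figures used matplotlib 3.10.9.

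The members, gene lists, groups by role and alternatives were chosen with earlier results of these data known. Values are given per library for all G1, inhibitor, E2F and Rb members. Of the S phase and mitosis members this holds for those with separated libraries, the 4 of smallest p and the 4 most abundant per kilobase. From each other list, those with the 2 smallest p and separated genes at a mean of 2 CPM or more were named, up to 4.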

Additional observations from a re-analysis of the deposited data

How the results depend on the processing

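With no filter on low counts, 55 genes were higher and 43 lower over all genes, and 1 cell cycle member, E2f1, was higher; DESeq2 gave 38 and 27, with 1 of the other mitosis genes, Tacc3, lower. The higher count was 0 under limma-voom, and both counts were 0 with the replicate block, without each library in turn, and without wildtype 1 and deficient 1. The replicate numbers did not pair the libraries (correlations of same-numbered deviations 0.000255, −0.0165 and 0.0200). With the block 0 members were called, as in the main fit, and 6 changed sign. Of the 45 tested members, 27 changed sign in at least 1 of 13 alternatives, and the cause was not tested. On the log2 scale, without wildtype 1 and deficient 1, Cdkn1b was −0.16, E2f2 −0.37, Mcm4 −0.12, Gins2 0.0035, Ube2c −0.54, Pcna −0.041 and the E2F and Rb median 0.035. Pcna was −0.011 with no filter, −0.00033 with the stricter filter and −0.042 with limma-voom, Cdkn2c was 0.19 with the replicate block, and the G1 median was 0.25 with no filter, which adds Cdk2. With each library left out, ranges were −0.14 to 0.22 for Cdkn1b, −2.03 to 0.43 for Cdkn2c, −0.22 to 1.04 for E2f2, −0.22 to 0.21 for Pcna, −0.013 to 0.63 for Mcm4, −0.48 to 0.13 for Gins2 and −0.055 to 2.21 for Ube2c. They were −0.37 to 1.10 for Ccne1, −0.050 to 1.12 for Ccne2, −0.49 to 0.14 for Rb1, −0.059 to 0.30 for Mcm6 and −1.31 to 0.043 for Stmn1. The median ranged from −0.37 to 0.29 for the G1 genes, −2.03 to 0.15 for the inhibitors and 0.18 to 1.64 for the E2F and Rb genes. E2f1, E2f3, Ccnd3, Cdk6, Cdkn1a, Kif20a and Kif23 kept their sign under every alternative that gave them a value. For E2f1, Ccnd3 and Cdk6, whose libraries were separated, leaving out libraries could hardly change the sign, so those alternatives add no evidence. Of the mitosis genes, 8 had a count of 0 in at least 1 library.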
